A study of Homo sapiens with 11 samples.

Results

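AKT-resistant FOXO1 was compared directly with CDK2-resistant FOXO1 in A673sh cells, on 1 array each, which are 2 of the 11 arrays of the series and were chosen by their labels alone. A673sh is a derivative of the Ewing sarcoma cell line A673 that carries a doxycycline-inducible shRNA against EWS-FLI1, the fusion oncogene of this tumor. Neither mutant array received doxycycline, so the shRNA was not induced and EWS-FLI1 was present. The AKT-resistant group (FLAG_FOXO1_AAA) had been transiently transfected with FLAG-tagged FOXO1 bearing T24A, S256A and S319A, and the CDK2-resistant group (FLAG_FOXO1_double) with FLAG-tagged FOXO1 bearing S249A and S298A. Both plasmids were pCDNA3-based, but the study names different versions of this backbone for them and obtained them from different sources. Another transfected array carried the empty pCDNA3 vector without doxycycline, and its level is given beside the mutants but was never used as the reference of a fold change. The remaining 8 arrays held A673sh cells that carried in addition a FOXO1-silencing hairpin (sh-FOXO1) or its scrambled control (sh-scrambled), kept without doxycycline or with 1 µg/ml of it for 48 h, with 2 arrays in each of the 4 groups. Transient transfection leaves a mixture of cells with and without plasmid, and a lower share of transfected cells cannot be told apart from less RNA per cell on such arrays. No source used here gives the time between transfection of the plasmids and RNA extraction.

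FOXO1 is a forkhead transcription factor that activates genes of growth arrest, cell death, antioxidant defense, proteolysis and metabolism. Phosphorylation by AKT, downstream of insulin and insulin-like growth factors, creates docking sites for 14-3-3 proteins and holds FOXO1 in the cytoplasm. CDK2, a kinase of the G1/S transition, phosphorylates other serines of FOXO1 and also keeps it from the nucleus. Alanine cannot be phosphorylated, so each mutant escapes 1 of the kinases and is directed to the nucleus. The comparison asks which genes differ in level according to the kinase that FOXO1 escapes.

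With 1 array for each mutant no gene could be tested, and the measure was the log2 difference in level, AKT-resistant minus CDK2-resistant. A gene was called higher or lower when this difference passed 0.7 (1.62-fold), the limit that the methods of the study use for these arrays, and was also larger than each of the 4 differences between replicate arrays of the shRNA groups for the same gene. By both limits 513 of 12326 genes were higher (4.16%) and 570 were lower (4.62%) with AKT-resistant FOXO1. Past 0.7 alone there were 518 higher (4.2%) and 583 lower (4.73%). Between replicate arrays fewer genes passed 0.7 in either direction, namely 157 in sh-scrambled without doxycycline (1.27%), 39 in sh-scrambled with doxycycline (0.316%), 90 in sh-FOXO1 without (0.73%) and 46 in sh-FOXO1 with doxycycline (0.373%). The SD of the difference over all genes was 0.43 between the mutants and 0.15 to 0.22 between replicates. Over all genes the median difference was −0.00085. The deposited values were already normalized, so this cannot show whether the samples were shifted as a whole before that step. The yardstick comes from shRNA cells, and the spread between repeated plasmid transfections is not measured by it.

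**Figure D1:**
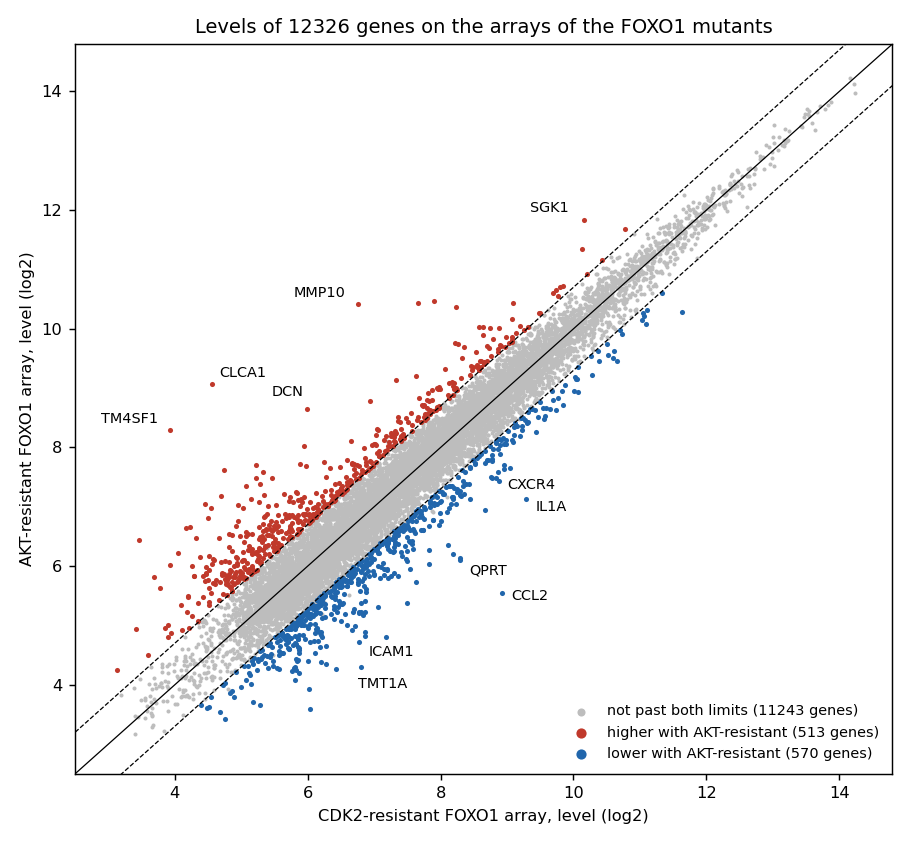
Level of each of 12326 genes with CDK2-resistant FOXO1 (x axis, log2) and with AKT-resistant FOXO1 (y axis, log2), with the line of equality and dashed lines at a log2 difference of 0.7 in either direction. The 513 genes called higher (red) and the 570 called lower (blue) lie on both sides of the line in like number, and the points farthest from it are CLCA1 and TM4SF1 above and CCL2 below.

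The plasmids themselves were visible in the FOXO1 probe sets, and not at the same level. The probe set used for the gene read 8.30 with AKT-resistant and 7.06 with CDK2-resistant FOXO1, against 5.84 with empty vector, a log2 difference of 1.24 between the mutants (2.36-fold). Another probe set read 8.84, 8.11 and 3.97 in the same order, a difference of 0.73, and the remaining one read 5.71, 5.61 and 5.88. Thus the probe sets that lay above the empty vector level in both mutants were higher with AKT-resistant FOXO1, and the amount of FOXO1 mRNA moves with every difference below. Its part in them was not tested, and arrays do not measure protein. By immunoblot the study describes its ectopic FOXO1 as similar in level to endogenous FOXO1 after EWS-FLI1 knockdown. FLI1, whose 3′ part is contained in the fusion, was at 9.14 and 8.88 with AKT-resistant and CDK2-resistant FOXO1, a difference of 0.26 that did not pass the limits. Of 8 Ewing sarcoma markers 7 were above the upper quartile of both arrays, while none of the 9 blood cell markers with a probe set was, and only 2 of those 9 reached the level needed for analysis. Above the upper quartile of both arrays were also 1 of 12 epithelial markers, KRT18, and 1 of 10 endothelial markers, EGFL7. Between the mutants, the epithelial and endothelial lists had no member past the limits (4 and 6 measured).

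The empty vector array lay between the mutants for most called genes. It was between them for 445 of the 513 higher genes (86.7%) and 507 of the 570 lower genes (88.9%), at a median of 51.0% and 51.9% of the way from the CDK2-resistant to the AKT-resistant level. In addition, the single empty vector array differed from the sh-scrambled arrays without doxycycline. The study lists its hairpins and the scrambled control as plasmids too, so sh-scrambled cells are not an untransfected baseline. What set the empty vector array apart from them was not tested. On the empty vector array 1242 genes were above the mean of the 2 sh-scrambled arrays by more than 0.7 (10.1%) and 469 below it (3.8%). Of the 513 higher genes 275 (53.6%) were among those above, and of the 570 lower genes 162 (28.4%) among those below. Across the 12326 genes, which are not independent replicates, the mutant difference correlated with the empty vector difference at r = 0.51, and these comparisons share no array. The AKT-resistant array was also the farther from sh-scrambled cells without doxycycline, with r = 0.974 and r = 0.976 to these arrays against r = 0.987 to both for the CDK2-resistant array. Hence many genes that set the mutants apart also set the empty vector array apart from sh-scrambled cells. The amount of plasmid or reagent taken up was not measured, and its part in the difference was not tested.

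**Figure D2:**
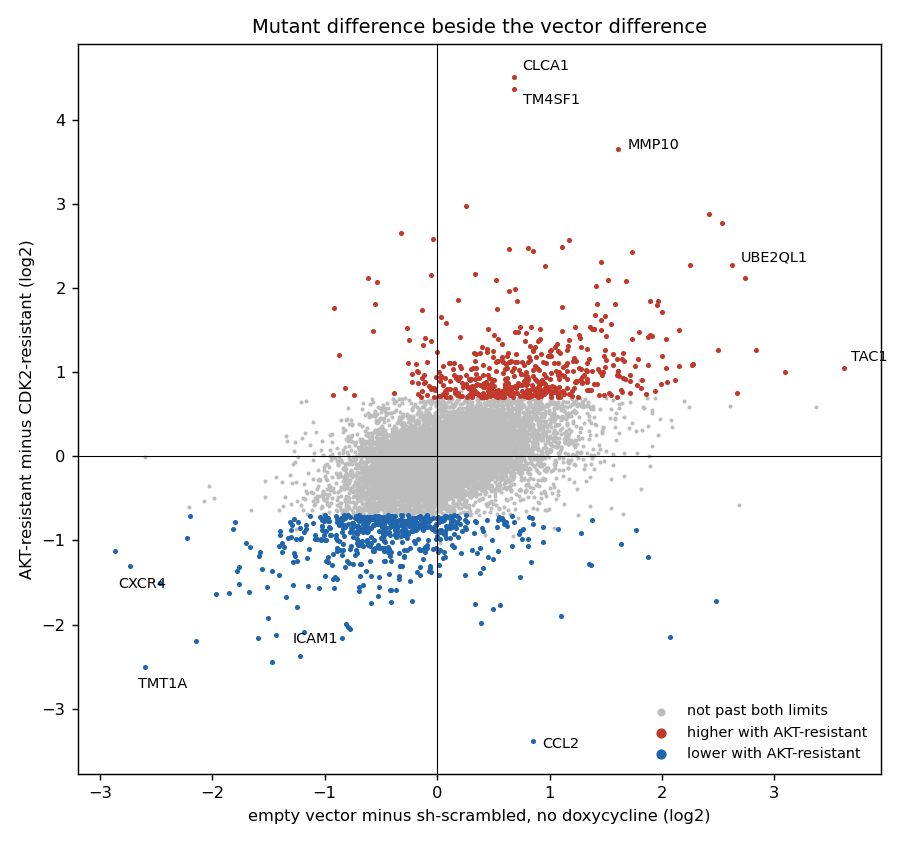
Log2 difference between the empty vector array and the mean of the sh-scrambled arrays without doxycycline (x axis) and between the mutants (y axis) for all 12326 genes, with called genes in red and blue. Red points lie mostly to the right and blue points mostly to the left (r = 0.51 across genes), although 7 of the 20 lowest genes lie to the right, CCL2 at 0.85 and IL1A at 2.07 among them.

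The 20 genes highest with AKT-resistant FOXO1 were of mixed function. CLCA1, a secreted regulator of calcium-activated chloride channels, was at 9.07 with AKT-resistant and 4.56 with CDK2-resistant FOXO1, a log2 difference of 4.51 (22.7-fold). It read 5.12 with empty vector and 4.62 and 4.26 in sh-scrambled cells, so that the AKT-resistant array alone stood out. TM4SF1, a tetraspanin-like surface protein, followed at 8.29 against 3.93, a difference of 4.36, with 4.64 on empty vector. The CDK2-resistant level of TM4SF1 was under the lower quartile of its array (4.10), where signal is hard to tell from background, and its fold is uncertain for that reason. The other probe sets of TM4SF1 gave differences of 3.18 and 3.31.

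The stromelysins MMP10 and MMP3, metalloproteinases that degrade matrix proteoglycans and glycoproteins, lie in the same gene cluster. MMP10 was at 10.41 with AKT-resistant and 6.76 with CDK2-resistant FOXO1, a difference of 3.65, and read 6.71 with empty vector and 5.05 and 5.15 in sh-scrambled cells. MMP3 was at 10.44 against 7.67, a difference of 2.78, with 8.02 on empty vector and 5.36 and 5.61 in sh-scrambled cells. Both were therefore above sh-scrambled cells on the mutant and empty vector arrays and highest on the AKT-resistant one. Of 19 matrix proteases and inhibitors these were the only ones called higher, where over all genes 4.16% were higher and 4.62% lower. In contrast, PLAU, the urokinase-type plasminogen activator, was lower by 1.07 in log2 (6.55 against 7.62), as were the protease inhibitor TIMP3 (8.29 against 9.22) and ADAMTS1 (6.65 against 7.50).

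Among the remaining high genes, ESM1, a secreted endothelial proteoglycan, was at 6.44 against 3.46, the latter again under the lower quartile. IGFBP7 and IGFBP3, proteins that bind insulin-like growth factors and are known EWS-FLI1-repressed genes, were at 7.62 against 4.74 and at 7.70 against 5.23. Their other probe sets gave smaller differences, 1.27 rather than 2.88 for IGFBP7 and 1.48 rather than 2.48 for IGFBP3. Decorin (DCN), a collagen-binding proteoglycan, was at 8.65 with AKT-resistant FOXO1, a difference of 2.65, and differed by 2.03 and 3.12 in its other probe sets. For DCN the empty vector (5.46) and sh-scrambled cells (5.84 and 5.73) were at the CDK2-resistant side. The retinol carrier RBP4 (7.04 against 4.45), the lectin receptor CLEC2B (10.46 against 7.89) and the fatty acid receptor CD36 (7.19 against 4.70) differed by 2.49 to 2.59. TLR1, an innate immune receptor, CARD16, an inhibitor of caspase-1 activation, and the histone gene H2BC4 differed by 2.43 to 2.47. The last of the 20 highest were NMRAL2P, MAP3K7CL, UBE2QL1, PRL, which encodes prolactin, HNMT, which inactivates histamine, and AADAC, at 2.16 to 2.31. RBP4 rested on 1 probe set, since another one, too dim to pass the filter, differed by −0.65. Among the last 6, UBE2QL1 was nearest to the empty vector level, at 7.35 with AKT-resistant FOXO1, 6.83 with empty vector and 5.07 with CDK2-resistant FOXO1.

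The gene lowest with AKT-resistant FOXO1 was a chemokine, and several other inflammatory mediators were among the 20 lowest. CCL2, the chemokine that attracts monocytes, was at 5.55 with AKT-resistant and 8.93 with CDK2-resistant FOXO1, a difference of −3.38 (10.4-fold). It read 6.83 with empty vector and 5.92 and 6.03 in sh-scrambled cells, so the CDK2-resistant array was the highest and the AKT-resistant array the lowest of these 5. The cytokine IL1A was at 7.13 against 9.29, with 7.98 on empty vector and 5.75 and 6.07 in sh-scrambled cells. IL1B was at 6.35 against 8.12, with 7.03 on empty vector. The adhesion molecules ICAM1 and VCAM1, which bind leukocyte integrins, were at 4.72 against 6.77 and at 3.94 against 6.02. Both were low on the empty vector array too (4.66 and 4.62), and the AKT-resistant level of VCAM1 was under the lower quartile. TNFRSF9, a costimulatory receptor of the TNF family, EBI3, a subunit of IL27 and IL35, and the chemokine CXCL3 differed by −1.90, −1.75 and −1.81.

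The rest of the 20 lowest had other functions. QPRT, an enzyme of NAD synthesis, was at 6.11 against 8.30, and its other probe set differed by −2.24. SERPINF1, a secreted antiangiogenic serpin, was at 6.14 against 8.30, GYG2, a primer of glycogen synthesis, at 5.37 against 7.50, and the collagen COL16A1 at 6.20 against 8.19. For these 4 genes empty vector lay between the mutants. Their levels in sh-scrambled cells were above those on the mutant and empty vector arrays, for QPRT at 9.23 and 9.24. TMT1A, SERTM1, C7, a complement component, and TMEM100 had the same order. For TMT1A this rested on 1 probe set (−2.50), since the other one differed by −0.08. AGPAT5 likewise differed by −1.98 in the probe set used and −0.03 in the other. MGAT4C, LINC02882 and RIPOR3 differed by −2.03 to −2.45.

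**Figure D3:**
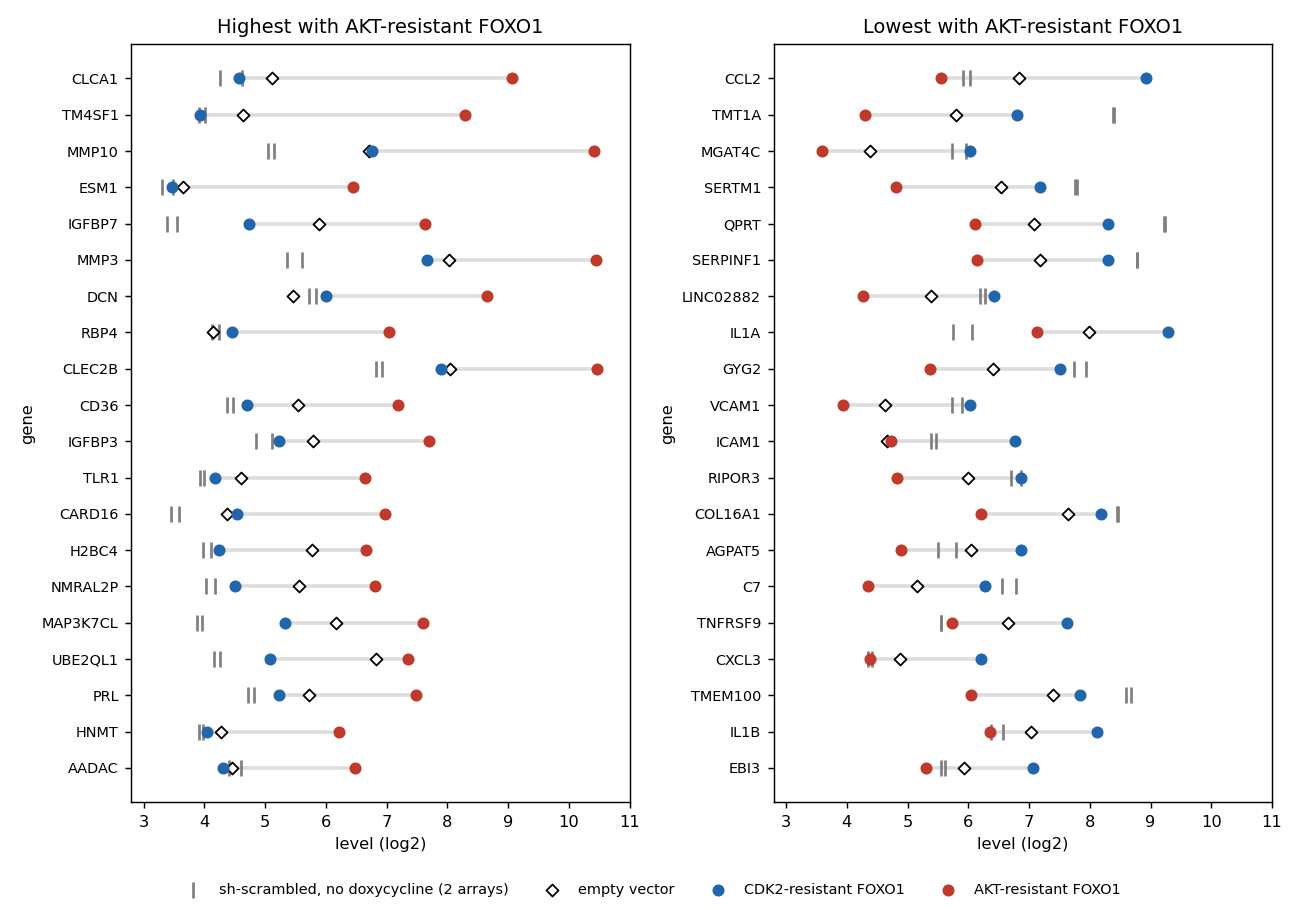
Level (x axis, log2) of the 20 genes highest (left) and the 20 lowest (right) with AKT-resistant FOXO1, as 1 point for each mutant array and the empty vector array and a tick for each of the 2 sh-scrambled arrays without doxycycline. In the left panel the AKT-resistant point stands to the right of all others for all 20 genes, whereas in the right panel the CDK2-resistant point is exceeded by both sh-scrambled arrays for 8 genes, such as QPRT at 9.23 and 9.24 against 8.30.

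Textbook FOXO targets differed in both directions. The growth arrest and death list had 2 higher and 3 lower genes of 20 measured, with a median of 0.28. The antiproliferative gene BTG1 was at 10.05 with AKT-resistant and 9.19 with CDK2-resistant FOXO1, and PMAIP1, which encodes the BH3-only protein NOXA, at 10.27 against 9.49. TXNIP, an inhibitor of thioredoxin and of glucose uptake, was at 7.63 against 8.95, a difference of −1.32, and its other probe sets gave −1.35 and −1.75. KLF15, a metabolic transcription factor, was lower by 1.24 in log2, and RBL2, the pocket protein p130, by 0.71. The cyclin-dependent kinase inhibitors CDKN1A (−0.11) and CDKN1B (−0.22) were not past the limits, nor was the proapoptotic BCL2L11 (0.68).

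In the antioxidant, metabolic and proteolytic FOXO target list, 5 of 17 genes were higher and 1 lower (median 0.23, or 0.09 without the filter on low values). DEPP1, a regulator of autophagy and a direct FOXO target, was at 7.03 with AKT-resistant and 4.95 with CDK2-resistant FOXO1, against 4.57 with empty vector and 5.16 and 5.05 in sh-scrambled cells. Its difference of 2.07 came from 1 probe set, and the other gave 0.05. NNMT, nicotinamide N-methyltransferase, was at 7.12 against 5.85, the muscle ubiquitin ligase FBXO32 (atrogin-1) at 6.28 against 5.10, and GABARAPL1, which takes part in autophagosome formation, at 9.73 against 8.89. These 3 genes each had another probe set, at 1.28, 1.21 and 0.58. SELENOP, a selenium carrier, differed by 1.11, but at 4.25 and 3.14 it was near or under the lower quartile of both arrays. The chemokine receptor CXCR4 went the other way, at 7.48 against 8.78, with 6.81 on empty vector and 9.51 and 9.57 in sh-scrambled cells. The sestrin SESN3 and catalase did not differ past the limits, SESN3 being at 5.69 on both arrays and catalase (CAT) differing by −0.39. Over all genes 4.16% were higher and 4.62% lower, and with so few genes in each list these counts were not tested.

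Promoter windows are shown for DEPP1 and TXNIP, FOXO targets that differed in opposite directions although each window holds the core FOXO motif GTAAACA. They are from RefSeq (GRCh38.p14) and run from 250 bases before to 50 after the annotated start, 5′ to 3′ on the strand of the gene. The DEPP1 window is chr10:44978760-44979059 and the TXNIP window chr1:145996530-145996829, both on the minus strand, and the capitals mark the motif, which begins 180 and 124 bases before the start.
DEPP1: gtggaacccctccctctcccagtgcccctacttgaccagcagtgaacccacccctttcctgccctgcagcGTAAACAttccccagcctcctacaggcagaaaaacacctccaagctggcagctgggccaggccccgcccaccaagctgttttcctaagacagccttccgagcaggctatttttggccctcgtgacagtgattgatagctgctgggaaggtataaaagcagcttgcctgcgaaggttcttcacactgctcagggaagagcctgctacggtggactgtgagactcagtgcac
TXNIP: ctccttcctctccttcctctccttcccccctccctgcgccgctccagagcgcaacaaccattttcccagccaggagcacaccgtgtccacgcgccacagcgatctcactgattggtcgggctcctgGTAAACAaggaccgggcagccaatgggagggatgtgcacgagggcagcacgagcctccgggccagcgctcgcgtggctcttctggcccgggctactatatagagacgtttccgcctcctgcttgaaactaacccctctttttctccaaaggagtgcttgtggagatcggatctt
The motif was read on both strands in the windows of called genes. It was present in 22 of 622 windows of the higher genes (3.54%), 20 of 683 windows of the lower genes (2.93%) and 391 of 14620 windows of all genes tested (2.67%). Besides DEPP1 and TXNIP, BTG1 and SELENOP were the called FOXO targets with a match. A match describes the letters of a window and is not a site at which FOXO1 was measured.

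The called genes of NF-kB signalling and the chemokines were nearly all lower with AKT-resistant FOXO1. NF-kB is the transcription factor of inflammatory cytokine signalling, and its inhibitors and cytokine targets are induced by it in a feedback loop. Of 26 measured genes of the NF-kB list 11 were lower and 1 higher, where over all genes 4.62% were lower and 4.16% higher. The list had a median of −0.61, whereas its median between replicate arrays ran from −0.06 to 0.05. The median was −0.35 with the mean of the probe sets of each gene and −0.47 with the brightest one. On the empty vector array against sh-scrambled cells its median was 0.35, of the opposite sign. Besides IL1A, VCAM1, ICAM1 and IL1B, the lower genes were CD83, NFKBIA, which encodes the inhibitor IκBα, the NF-kB subunit NFKB2, the ubiquitin editor TNFAIP3, TNFAIP2, TRAF1 and CSF1, at −0.71 to −1.30. NFKBIA, for example, was at 9.63 with AKT-resistant and 10.62 with CDK2-resistant FOXO1, with 10.01 on empty vector and 9.25 on both sh-scrambled arrays. The single higher gene was the inhibitor NFKBIB at 0.74, with 0.13 and 0.35 in its other probe sets. REL differed by −1.10 but by 1.38 between the replicates of sh-scrambled cells without doxycycline, and was not called. IL6 (0.25) and PTGS2 (0.09) did not follow the list.

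Of 18 chemokines and receptors 7 were lower and none higher, where over all genes 4.62% were lower and 4.16% higher. The median was −0.60, with replicate medians of −0.04 to 0.14. Without the filter on low values the median was −0.33. The lower genes were CCL2, CXCL3, CXCL10, CXCR4, CCL20, CXCL1 and CXCL12. CCL20, which attracts Th17 cells and B cells, was at 7.04 against 8.24, with 6.82 on empty vector and 4.99 and 4.90 in sh-scrambled cells. CXCL1 and CXCL10 showed another order, since AKT-resistant FOXO1 (4.69 and 4.42), empty vector (4.61 and 4.28) and sh-scrambled cells (4.59 and 4.52, and 4.89 and 4.72) were close together and CDK2-resistant FOXO1 stood above them at 5.83 and 5.86. CXCL8 (−0.57) and CXCL2 (−0.05) were not past the limits.

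The NF-kB motif, read on both strands as GGGA and TTTCC with any base between them, was present in 11 of 683 windows of the lower genes (1.61%), 4 of 622 windows of the higher genes (0.643%) and 90 of 14620 windows of all genes (0.616%). Among the called genes of the lists above it was in the windows of NFKB2, NFKBIA, TNFAIP3, NFKBIB, CXCL1 and CXCL3. NFKBIB was thus a gene with the motif that was higher. The CXCL3 window, chr4:74038640-74038939 on the minus strand (RefSeq, GRCh38.p14), is shown because CXCL3 was both among the 20 lowest and among these, with the motif in capitals 79 bases before the start.
CXCL3: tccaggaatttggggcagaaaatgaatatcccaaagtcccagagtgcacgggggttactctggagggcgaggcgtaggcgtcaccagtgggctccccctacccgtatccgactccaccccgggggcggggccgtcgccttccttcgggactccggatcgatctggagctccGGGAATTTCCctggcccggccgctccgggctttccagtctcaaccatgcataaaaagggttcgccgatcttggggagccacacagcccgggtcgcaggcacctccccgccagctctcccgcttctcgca

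The called interferon-stimulated genes were all lower. These antiviral genes are induced through STAT and IRF factors that bind the interferon-stimulated response element. Of 33 measured members 10 were lower and none higher, where over all genes 4.62% were lower and 4.16% higher. The median was −0.23 (replicate medians 0.0024 to 0.07). IFI44L was at 5.17 with AKT-resistant and 6.83 with CDK2-resistant FOXO1, with 6.55 on empty vector and 6.95 and 7.21 in sh-scrambled cells, and so the AKT-resistant array was apart from the others. OAS1, a sensor of double-stranded RNA, was at 4.62 against 5.87, the ubiquitin-conjugating enzyme UBE2L6 at 6.78 against 7.89 and IFIT1 at 4.74 against 5.70. For OAS1, UBE2L6 and IFIT1 the empty vector, at 4.67, 7.10 and 4.86, was nearer to AKT-resistant FOXO1. The others were IFIH1, IFITM1, IFITM3, SAMD9, IFITM2 and OAS3, at −0.72 to −0.96. Among members that did not follow were CMPK2 at 0.59 and IFIT3 at 0.55. MHC class I and antigen processing had 1 of 15 genes past the limits, HLA-E, which was higher by 0.70.

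The element was read on both strands as a pair of GAAA runs with 2 bases between them. It was in the windows of 7 of the 9 called interferon genes that had one, against 387 of 9989 genes tested (3.87%). Genes induced through this element make up the list, so that share follows from membership and does not bear on the mutant difference. Uncalled members of the list were not searched for comparison. Counted by window, the element was in 25 of 622 of the higher (4.02%), 31 of 683 of the lower (4.54%) and 415 of 14620 of all genes (2.84%). The IFI44L window, chr1:78620198-78620497 on the plus strand (RefSeq, GRCh38.p14), holds 2 matches with the same letters, 164 and 73 bases before the start, and is shown because IFI44L had the largest difference of the list.
IFI44L: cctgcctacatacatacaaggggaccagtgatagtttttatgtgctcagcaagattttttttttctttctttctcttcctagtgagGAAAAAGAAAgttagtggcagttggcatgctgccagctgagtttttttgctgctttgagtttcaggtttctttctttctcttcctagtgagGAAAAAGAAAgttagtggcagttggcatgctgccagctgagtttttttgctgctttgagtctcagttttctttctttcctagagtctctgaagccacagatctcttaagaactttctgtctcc

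The AP-1 motif TGANTCA, bound by FOS and JUN family dimers, had the widest gap, in percentage points, between the called groups of the 5 motifs searched on both strands. It was in 65 of 622 windows of the higher genes (10.5%), 42 of 683 of the lower genes (6.15%) and 780 of 14620 of all genes (5.34%). Counted by gene, 60 of 412 higher genes (14.6%), 35 of 433 lower genes (8.08%) and 711 of 9989 genes (7.12%) had 1 or more windows with it. Of the 12 genes among the 20 highest with a window, 5 held it, namely CD36, HNMT, MMP10, PRL and RBP4. Of the 16 genes among the 20 lowest with a window, 4 held it too, namely EBI3, IL1A, LINC02882 and TNFRSF9. The MMP10 window, chr11:102780579-102780878 on the minus strand (RefSeq, GRCh38.p14), is shown as the largest difference among the 5 higher genes, with the motif 67 bases before the start. The CCAAT box was in 33.9%, 32.5% and 34.5% of the windows of higher, lower and all genes.
MMP10: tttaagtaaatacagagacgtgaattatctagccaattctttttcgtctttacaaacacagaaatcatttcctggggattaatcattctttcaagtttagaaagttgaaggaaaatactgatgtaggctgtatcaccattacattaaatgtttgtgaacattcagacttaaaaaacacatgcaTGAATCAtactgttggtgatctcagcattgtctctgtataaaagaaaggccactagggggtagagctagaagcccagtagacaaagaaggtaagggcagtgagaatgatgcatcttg
In the list of immediate early factors, which holds the AP-1 subunits, FOSL1 (7.94 against 7.16) and MAFF (10.73 against 9.84) were higher, as was the orphan receptor NR4A2 (6.24 against 5.02), and NR4A3 was lower (5.22 against 6.44). FOS (−0.05), JUN (0.20) and JUNB (−0.41) were not past the limits. FOSL1 and MAFF were far lower in sh-scrambled cells (5.70 and 5.71, and 7.83 and 8.08) than on the empty vector array (7.64 and 10.00).

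The textbook EWS-FLI1 target lists held called genes in both directions, where over all genes 4.16% were higher and 4.62% lower. Of 22 EWS-FLI1-repressed genes 6 were higher and 3 lower (median 0.33), and of 28 EWS-FLI1-activated genes 1 was higher and 4 lower, with a median of −0.23. The higher repressed genes were IGFBP7, IGFBP3, osteopontin (SPP1, 5.63 against 3.78), the matrix glycoprotein THBS1 (5.48 against 4.21), CCN2 (10.01 against 8.75) and FOXO1 itself, which here reads the plasmid. For THBS1 another probe set had the opposite sign (−0.67). The lower genes of the repressed list were COL1A2, TXNIP and TIMP3. On the shRNA arrays TXNIP fell after EWS-FLI1 knockdown (−1.72 in log2), against its place in this list. Among activated genes, PPP1R1A, an inhibitor of protein phosphatase 1, was at 7.43 against 8.88, and PRKCB, GLI1 and VRK1 differed by −0.72 to −0.73. The neuropeptide CCK was higher, at 8.25 against 7.25. At 4.96 and 4.88 in sh-scrambled cells, CCK was far below the mutant and empty vector arrays. With the brightest probe set of each gene the median of the repressed list was 0.19 in place of 0.33, and a difference between the lists was not tested. The median of the repressed list on the empty vector array against sh-scrambled cells was 0.62, larger than between the mutants.

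Genes fixed for their place in the EWS-FLI1 and FOXO1 axis were EPAS1, MME, OSMR and CDK2. The study had picked EPAS1, MME and OSMR from genes that were significant across its own comparisons of these same arrays. The directions of these genes here were therefore partly set by that choice. EPAS1, the hypoxia-inducible factor HIF2α, was at 6.83 against 5.71 and MME, the surface peptidase CD10, at 5.84 against 4.42. The brighter probe set of MME differed by 0.63, short of the limit. OSMR, the oncostatin M receptor, was at 6.44 against 5.32 in the probe set used, yet its other probe sets differed by 0.35 and −0.01. CDK2, the kinase that the S249A and S298A sites evade, was itself lower with AKT-resistant FOXO1, at 6.42 against 7.53, and by 0.18 in log2 in its other probe set. It read 6.85 with empty vector and 7.06 and 6.72 in sh-scrambled cells. Thus in the probe set used CDK2 mRNA was highest, of these 5 arrays, with the CDK2-resistant mutant.

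Proliferation genes were mostly below 0 without passing the limits, and over all genes 4.16% were higher and 4.62% lower. Of 38 mitotic genes only the kinase NEK2 was called, at 6.08 against 7.49, and its brighter probe set, at −0.68, was short of the limit. The differences of 36 of the 38 were below 0, with a median of −0.37 and replicate medians of −0.05 to 0.08. PLK1 (0.03) and CENPF (0.02) were the members above 0. In the G1/S and replication list 34 of 44 genes were below 0 and 4 were called, namely CDK2, the primase PRIM1, the clamp loader subunit RFC4 and GINS1, the last 3 at −0.75 to −0.81. The p53 target list had a median of 0.00 and 1 called gene, MDM2, an E3 ligase of p53, at 6.69 against 7.98. For MDM2 the other probe sets gave −0.12 to −0.40, and replicates differed by up to 0.84.

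Most called genes of lipid synthesis were lower, where over all genes 4.16% were higher and 4.62% lower. In cholesterol synthesis, which SREBP factors control, 4 of 21 genes were lower and 19 were below 0, with a median of −0.32. They were TM7SF2 (6.17 against 7.41), SREBF1 (6.27 against 7.05), INSIG1 (7.90 against 8.60) and LSS (8.42 against 9.12). In fatty acid synthesis 3 of 11 were lower, the elongase ELOVL6 at 5.84 against 7.36, the desaturase FADS2 at 6.60 against 7.74 and the carboxylase ACACB, and LPIN1 was higher at 6.31 against 5.51. The 2 lists had medians of −0.27 and −0.54 on the empty vector array against sh-scrambled cells, so they were lower there too.

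Matrix genes differed in both directions, where over all genes 4.16% were higher and 4.62% lower. Of 35 collagens and matrix glycoproteins 7 were higher and 8 lower (median −0.34). The fibrillar collagens COL1A2 (4.24 against 5.77) and COL3A1 (7.51 against 8.75) were lower, although the other probe sets of COL1A2 gave −0.24 and −0.47. Also lower were COL5A1, COL5A2, COL6A1, COL6A2, fibulin FBLN1 and the crosslinking enzyme LOXL1, at −0.77 to −1.14. COL3A1 was higher still in sh-scrambled cells, at 9.64 and 9.84. The higher genes were DCN, TGFBI (8.02 against 5.94), THBS1, the calcification inhibitor MGP and the collagens COL8A1 (6.07 against 4.70), COL11A1 (6.11 against 5.02) and COL12A1 (8.72 against 7.75). COL11A1 had another probe set at −0.31, and MGP was dim, at 4.96 against 4.21, the latter near the lower quartile of its array.

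Mesenchymal factors and surface markers had 6 higher and 2 lower of 23. For this and the next lists, 4.16% of all genes were higher and 4.62% lower. Beside TM4SF1 and MME, the higher genes were CD44 (10.16 against 9.08), NT5E (CD73), NGFR and PDGFRA, at 0.76 to 1.09, and the lower genes were MCAM (6.61 against 7.74) and the repressor ZEB2. In the TGF-beta and BMP list 3 of 25 genes were higher, TGFBI, SKIL and BAMBI, the last 2 being feedback inhibitors of the pathway, and none was lower, with a median of 0.30. The Wnt list had the opposite sign, with a median of −0.40 and 2 of 19 lower, the inhibitor DKK2 (8.64 against 9.73) and the factor LEF1. Without the filter on low values the Wnt median was −0.23. Among SRF and YAP targets ANKRD1 (5.98 against 4.47) and CCN2 were higher and smooth muscle actin ACTA2 (10.28 against 11.64) was lower. In bone and cartilage differentiation SPP1 and RUNX2 were higher and the chondrogenic factors SOX9 and SOX6 lower.

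Metallothioneins and replication-dependent histones had the highest medians of the 39 lists. Their counts of called genes stand against 4.16% higher and 4.62% lower over all genes. Metallothioneins bind zinc and copper and are induced with SLC30A1, the zinc exporter, by the metal-sensing factor MTF1. Of these 7 genes 6 were higher, with a median of 1.09, and the remaining one, MT1F, was at 0.69. MT2A was at 11.35 with AKT-resistant and 10.13 with CDK2-resistant FOXO1, with 10.35 on empty vector and 9.23 and 9.27 in sh-scrambled cells. MT1X, MT1H, SLC30A1, MT1E and MT1G differed by 0.86 to 1.33. Probe sets of near-identical paralogs can read each other, so the metallothioneins are not separate observations, and the same holds for the histones. Of the 7 histone genes 5 were higher, H2BC4, H4C8, H2BC21, H2AC6 and H2BC12, with a median of 1.08. In both lists the empty vector lay between the mutants for all 7 genes, and the medians on the empty vector array against sh-scrambled cells were 0.92 and 1.37.

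The called genes of the stress and signalling lists were mostly higher, where over all genes 4.16% were higher and 4.62% lower. Of 29 genes of the unfolded protein response and ATF4, 5 were higher and none lower (median 0.17): the cystine transporter SLC7A11 (9.69 against 8.35), the sensor kinase ERN1 (8.30 against 7.04), the chaperone DNAJC3, the phosphatase subunit PPP1R15A and HERPUD1. HSPA5 (0.07) and XBP1 (−0.23) were not past the limits. Of 29 hypoxia genes 4 were higher, EPAS1, NDRG1, the glucose transporter SLC2A3 and adrenomedullin (ADM), while VEGFA was at 0.08. The autophagy and lysosome list had 21 of 26 genes above 0 and a median of 0.31, with GABARAPL1 as the only called gene. Of 21 genes of IL6, oncostatin M and STAT3 signalling 4 were higher, the receptors LIFR, OSMR and IL6R and the kinase JAK2, and the inhibitor SOCS1 and the receptor IL11RA were lower. The median of that list was 0.24, and 0.09 with the brightest probe set of each gene. LIFR differed by 1.23 in the probe set used and by 0.80, −0.11 and −0.29 in the others.

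In the IGF, insulin, PI3K and AKT list 3 of 27 genes were higher and 1 lower (median 0.09, or 0.16 with the brightest probe set). Here too, 4.16% of all genes were higher and 4.62% lower. SGK1, a kinase of the AKT family that also phosphorylates FOXO factors, was at 11.84 against 10.16, with 11.05 on empty vector and 9.67 and 9.60 in sh-scrambled cells. The regulatory subunit PIK3R1 was lower by 0.86 in log2, with −0.26 and 0.10 in its other probe sets. INSR (0.22), IRS2 (0.41) and AKT1 (0.18) were not past the limits. Within the FOX family, FOXF2 and FOXJ3 were higher beside FOXO1, FOXO6 was lower (5.87 against 6.70), and FOXO3 and FOXO4 differed by −0.02 and 0.01. Neural genes had 5 of 18 lower, such as ENO2 (7.13 against 8.18) and GRP, and the neuropeptides TAC1 and CCK higher. TAC1 was at 5.83 and 4.78 in the mutants but at 6.97 with empty vector, and so was outside the range of the mutants.

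Serine synthesis and amino acid supply had 1 gene in each direction of 18, the amino acid transporter subunit SLC3A2 (0.91) and PSAT1 (−0.88). The brighter probe set of PSAT1 differed by −0.09 only. The heat shock and MAPK feedback lists each had 1 higher gene, HSPA6 (0.97) and SPRED2 (0.71). Oxidative phosphorylation had none of 20, where over all genes 4.16% were higher and 4.62% lower. Among 13 reference genes POLR2A passed the limits, at 0.71, while GAPDH (−0.02), B2M (0.17) and ACTB (−0.27) did not. In all, the medians of 13 lists were above, and those of 17 below, the largest replicate median in size, and 9 were within it.

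The called genes were also read on the shRNA arrays, which share no array with the mutants but are not independent of the calls. Their replicate differences were part of the limits for a call. They also entered the choice of the most variable probe set of each gene, and the effect of this on the shares below was not tested. EWS-FLI1 knockdown, sh-scrambled with against without doxycycline (n = 2 each), raised 998 of 12326 genes (8.1%) and lowered 923 (7.49%) at a log2 fold change past 1 and an adjusted p under 0.05 (limma). In the group of 513 higher genes 151 rose after the knockdown (29.4%) and 12 fell (2.34%). Of the 570 lower genes 103 rose (18.1%) and 126 fell (22.1%). Among the genes not called between the mutants 6.62% rose and 6.98% fell. Thus the higher genes that passed the knockdown test were mostly EWS-FLI1-repressed, whereas the lower genes held both kinds. Across genes the mutant difference correlated with the knockdown effect at r = 0.16.

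The leading genes differed in their response to EWS-FLI1 knockdown. IGFBP7 rose by 8.09 in log2 (standard error 0.12, adjusted p = 5.4e-09, limma) and IGFBP3 by 4.95 (standard error 0.11, adjusted p = 1.9e-08, limma), and MMP10 rose too (adjusted p = 7.0e-09, limma). On the other side, CCL2 rose by 6.19 (standard error 0.09, adjusted p = 5.2e-09, limma), and VCAM1, CXCL3, IL1A, IL1B and ICAM1 rose by 3.78 to 4.31. So these inflammatory genes, lower with AKT-resistant FOXO1, were also EWS-FLI1-repressed in sh-scrambled cells. In contrast, SERTM1, C7, GYG2 and LINC02882, also among the 20 lowest, changed by −1.78 to −2.93, and TMT1A was at −0.98. CLCA1 (−0.08), RBP4 (0.09), ESM1 (0.37), H2BC4 (0.08), NMRAL2P (−0.03), AADAC (−0.03) and QPRT (0.03) did not pass the knockdown test. TXNIP fell by 1.72 and CXCR4 fell by 2.90.

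FOXO1 silencing under EWS-FLI1 knockdown, sh-FOXO1 against sh-scrambled with doxycycline (n = 2 each), raised 380 genes (3.08%) and lowered 292 (2.37%) past a log2 fold change of 0.7 and an adjusted p under 0.05 (limma). FOXO1 itself fell by 1.44 (standard error 0.11, adjusted p = 0.00014, limma). Of the 513 higher genes 29 fell after silencing (5.65%) and 46 rose (8.97%), and of the 570 lower genes 55 fell (9.65%) and 25 rose (4.39%), against 1.85% and 2.75% of the genes not called. Genes that were higher with AKT-resistant FOXO1 and fell when FOXO1 was silenced included EPAS1 (−1.76), MME (−1.15), OSMR (−1.16), NNMT (−1.12), NR4A2 (−2.16), SKIL (−0.90) and MT1X (−0.75). Of these, EPAS1, MME and OSMR had been picked by the study partly for that fall. MMP3 (1.03), THBS1 (0.83), ANKRD1 (0.82), COL11A1 (0.82), TAC1 (0.78), NGFR (0.77), NDRG1 (0.71) and H4C8 (0.71) were higher as well but rose. Of the genes that were higher with CDK2-resistant FOXO1, CXCL3 (−1.84), INSIG1 (−1.48) and DKK2 (−1.25) fell, and CXCR4 (1.99) and TIMP3 (1.49) rose. MMP10 (−0.09), IGFBP7 (−0.27), CCL2 (−0.19), TXNIP (0.68) and DEPP1 (−0.19) did not pass the limit, and the replicate arrays come from the same cell line, so these p-values measure only the spread between arrays.

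Of the 140 genes named by rule 139 passed both limits, and 68 of them had another probe set that reached the level needed for analysis. Of these 113 other probe sets 102 had the same sign, 52 of them past 0.7, and 11 had the opposite sign, none past 0.7. For 28 of the 68 genes no other probe set passed 0.7 in the same direction, so their calls rested on the probe set used. Besides those described, they were ACACB, FADS2, FOXJ3, ERN1, INSIG1, JAK2, LPIN1, IL11RA, MCAM, NT5E, PRKCB, RBL2, SLC2A3, SOCS1 and SOX6. The 9 genes with an opposite probe set were ACACB, CD44, COL11A1, LIFR, OSMR, PIK3R1, PRKCB, SOX6 and THBS1. On the dimmer of the mutant arrays 14 of the 513 higher and 19 of the 570 lower genes were under the lower quartile, and the folds of these genes are uncertain.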

How the data were processed

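RNA of A673sh cells had been hybridised by the study to Affymetrix HG-U133 Plus 2 arrays. The authors deposited 1 normalized log2 value per probe set (54675) and array, and no source used here names the normalization. The base is taken as 2 from the range of 2.60 to 14.6. The platform annotation pairs 41097 probe sets with 1 symbol and 1801 with several, leaving 11777 unnamed, and 99.9% of symbols were updated through the gene identifier (RefSeq).

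Probe sets below the 60th percentile on every array were dropped, and each gene was read from its most variable probe set (interquartile range, 11 arrays). The 2 mutant arrays were compared by difference alone. The 8 shRNA arrays were fitted with limma 3.58.1 (R 4.3.3) by group, with empirical Bayes and Benjamini-Hochberg adjustment, and both scripts were tested on simulated data. Their replicate numbers may pair the arrays, since deviations of same-numbered arrays from the group means correlated at 0.44 to 0.62 between groups. The standard errors and p-values given come from the fit without this pairing, and a replicate block was used only as an alternative for the counts. Genes named were FOXO1, FLI1, EPAS1, MME, OSMR and CDK2, the 20 highest and 20 lowest called genes that reached the median of either mutant array, and up to 4 called members per list, with members against the sign of their list. Other members are named to complete a count or as examples of genes not called, after their values were seen. The comparison, the 39 gene lists and the motifs were chosen with earlier results of these data known. Array number limits the precision. Alternatives were other limits, probe set rules, filters and scalings, each shRNA array left out and the replicate block.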

Additional observations from a re-analysis of the deposited data

How the results depend on the processing

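By both limits 513 genes were higher and 570 lower. They were 212 and 192 at a log2 limit of 1, and 1069 and 1116 at 0.5. Under the other settings they stayed within 1.5 times: 382 and 472 with the brightest probe set, 370 and 420 with the mean of probe sets, 667 and 709 without the filter on low values, 523 and 544 after quantile normalization of the mutant arrays, 543 and 524 with a lowess trend removed, and 471 and 536 against 3 times the root mean square of the replicate differences. Without each shRNA array in turn they were 513 to 516 and 570 to 575. With the brightest probe set 350 higher and 442 lower genes were shared with the calls reported.

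The number of lists with a median beyond the replicate medians was 30, and 29 to 33 under the alternatives. The median of matrix proteases and inhibitors, −0.06, changed sign to 0.0056 with the mean of probe sets, 0.046 without the filter, 0.023 after quantile normalization and 0.044 with the trend removed. LIFR turned to −0.11 with the brightest probe set, and RBP4 to −0.65 without the filter, which took another, dim probe set. Named genes moved mainly with the probe set rule. By more than the replicate spread 39 of 140 moved with the mean of probe sets and 26 with the brightest one, beside LIFR, and none moved under the scalings. Of the 39 list medians 14 moved with the brightest probe set, 11 with the mean and 14 without the filter.

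No paired analysis was possible for the mutants because each has 1 array. With the replicate block in the shRNA fit, the called genes that rose and fell after EWS-FLI1 knockdown were 151 and 12 of the higher and 103 and 126 of the lower genes, and after FOXO1 silencing 46 and 29, and 25 and 55, the same counts as without it. The block and the omission of single shRNA arrays were added after seeing the data for these counts.

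With 1 array per mutant, variation between transfections is unmeasured. The difference in FOXO1 mRNA, the version of the plasmid backbone and the closeness of each array to the sh-scrambled arrays move with the mutant difference. They cannot be told apart from the substitutions.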
